A study of Rattus norvegicus with 6 samples.

Results

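Fc receptors are the proteins by which immune cells bind the constant part of antibodies. Activating receptors pass the signal on through an immunoreceptor tyrosine-based activation motif (ITAM), which for most rodent IgG and IgE receptors is carried by a separate subunit, the Fc receptor gamma chain encoded by Fcer1g. The kinase Syk then docks on the phosphorylated motif. Fcgr2b instead carries an inhibitory motif (ITIM) of its own and recruits the phosphatase SHIP1, the product of Inpp5d. In the brain these receptors are known chiefly from microglia and from macrophages that enter after injury. Fc receptor-like genes are relatives of the IgG receptors, and many of their products have no established role in binding IgG.

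The genes described are 6 Fc receptor and Fc receptor-like genes, Fcer1g, Fcgr1a, Fcgr2a, Fcgr3a, Fcgr2b and Fcrl2, taken by their names in the platform annotation wherever a probe set carried exactly 1 symbol. By this rule 5 of the 6 were measured, among 10947 tested genes, each by 1 probe set. Fcgr2a was not: both probe sets that carry its symbol also carry that of its close relative Fcgr2al1, and they are described apart from the members.

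RNA was measured on 6 single-channel Affymetrix rat arrays, 1 for each combination of age and time. All rats were male Sprague-Dawley rats. The groups were aged naive rats (18 to 20 months, RNA of 15 animals pooled) and young naive rats (3 to 5 months, 15 animals). The others were aged rats (19 to 20 months) and young rats (3 to 4 months) at 3 d or 14 d after a cerebral infarct. Each aged stroke pool held RNA of 23 animals and each young one that of 19. Blood flow in the middle cerebral artery was interrupted by raising the vessel on a hook, and tissue around the resulting infarct was collected. The naive tissue is labelled healthy brain, with no region named, and no sham-operated rats are among the samples.

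Each value comes from 1 array of 1 pool and hides the variation among animals, and precision is limited by there being only 6 arrays. Medians per array were 7.09 to 7.15 (log2), and arrays correlated with each other at 0.962 to 0.995 (Pearson, all probe sets). Markers of neurons, astrocytes and oligodendrocytes were at high levels on all arrays, with list means of 10.18 to 11.03, 10.81 to 11.29 and 10.67 to 10.93. Of 10 neuron markers 5 were lower at 3 d and 8 at 14 d by the test described next, beside 861 and 1243 of 10947 tested genes. Changes come from a limma fit of time and age over all 6 arrays, in which the aged and the young array stand as the 2 measurements of each time point. They are log2 differences ± SE, with Benjamini-Hochberg adjustment over all tested genes at 0.05. No group has a second array, so the p-values do not measure variation among animals or among pools of a group. Their error is what separate effects of time and age leave over, and an age difference of the response enters it. More cells of a type and more RNA per cell cannot be told apart in bulk tissue.

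The first question was how the levels of these genes in tissue around the infarct at 3 d and at 14 d differed from those in naive brain. All 5 measured members were higher at both times. The rises at 3 d ran from 2.22 for Fcgr1a to 4.52 for Fcrl2, and those at 14 d from 1.81 for Fcgr3a to 4.21 for Fcrl2. Both comparisons use the same 2 naive arrays. Over all tested genes, 14.4% were higher at 3 d and 13.6% at 14 d by the same test. Fcrl2, Fcgr1a and Fcgr3a lay below the 40th percentile of both naive arrays and reached the filter through the stroke arrays alone. The count of 5 is therefore given as a description. Without the filter the members gave the same count, 5 of 5 at each time, beside 1445 higher genes at 3 d and 1363 at 14 d among 14497. The plot of levels by array shows these values beside the 40th percentile of each array.

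**Figure D1:**
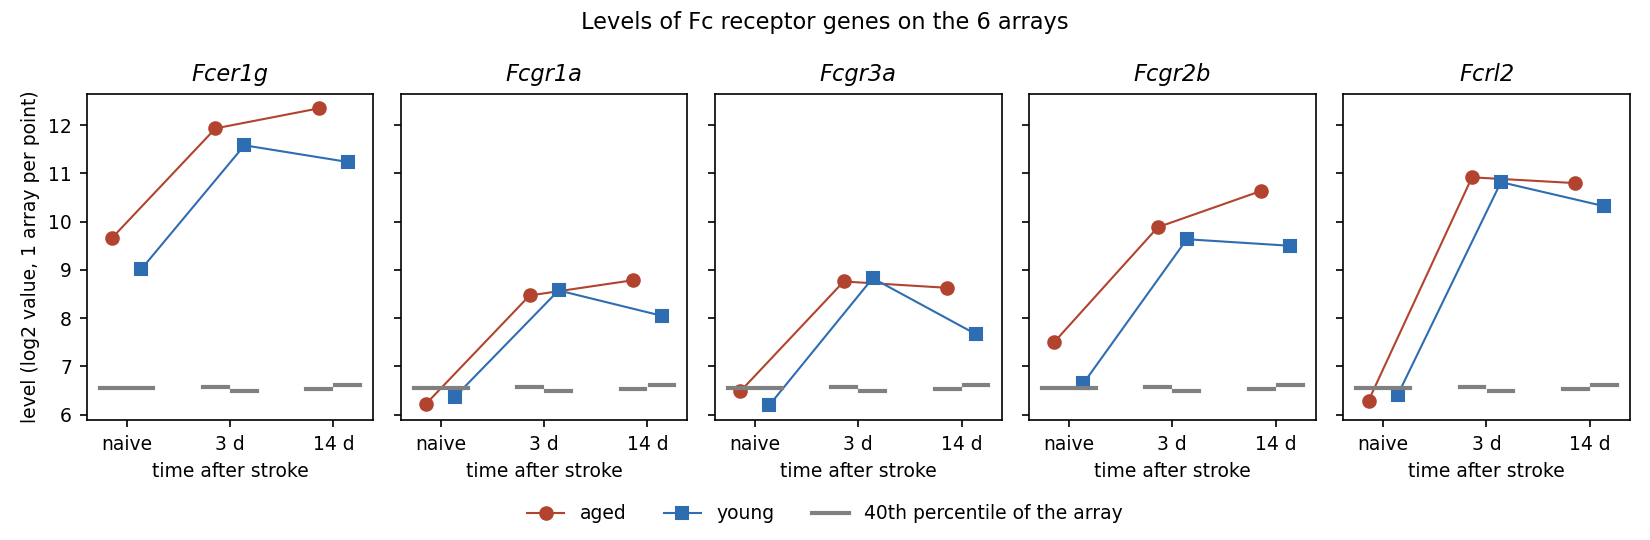
Level of each measured member (y axis, log2 value) in naive brain and at 3 d and 14 d after stroke (x axis). Each point is 1 array, circles for aged and squares for young rats, and grey bars mark the 40th percentile of that array. All 4 stroke arrays lie above both naive arrays in each panel, as for 23.8% of tested genes. At 14 d the aged array lies above the young one in each, as for 52.1% of tested genes.

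Fcer1g, the ITAM-bearing gamma chain shared by the activating receptors, measured 9.66 in aged and 9.01 in young naive rats, 11.93 and 11.58 at 3 d, and 12.35 and 11.24 at 14 d. All 4 stroke arrays lay above both naive arrays, as for 23.8% of tested genes. The aged array was the higher one at each time, as for 11.3% of tested genes. Fcer1g rose by 2.42 ± 0.18 at 3 d, a 5.35-fold change (limma adjusted p = 0.000193), and by 2.46 ± 0.18 at 14 d, a 5.49-fold change (limma adjusted p = 0.000167). With Fcgr2b it was 1 of the 2 members at or above the 40th percentile on all 6 arrays.

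Fcgr1a encodes the high-affinity IgG receptor CD64, which binds single IgG molecules and is known to be induced by interferon gamma. It measured 6.23 in aged and 6.37 in young naive rats, 8.47 and 8.57 at 3 d, and 8.78 and 8.05 at 14 d. The naive values were below the 40th percentile of their arrays (6.56 and 6.55), so the size of the rise is uncertain. At 3 d the aged array was lower by a small margin, with a difference of -0.10, and at 14 d the aged array was higher. The rise was 2.22 ± 0.22 at 3 d, a 4.66-fold change (limma adjusted p = 0.000478), and 2.12 ± 0.22 at 14 d, a 4.33-fold change (limma adjusted p = 0.000619).

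Fcgr3a, with the synonyms Fcgr4 and CD16-2 in the RefSeq gene table, encodes an activating IgG receptor of the CD16 group that works through the gamma chain. It measured 6.48 in aged and 6.20 in young naive rats, 8.76 and 8.83 at 3 d, and 8.63 and 7.67 at 14 d. The young array at 14 d was the lowest of the 4 stroke arrays by nearly a whole log2 unit, yet lay above both naive arrays. Fcgr3a rose by 2.45 ± 0.22 at 3 d, a 5.48-fold change (limma adjusted p = 0.000347). At 14 d the rise was 1.81 ± 0.22, a 3.50-fold change (limma adjusted p = 0.0015).

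Fcgr3a was also the 1 of the 5 measured members with an entry in the RefSeq promoter table. Its promoter is shown for that reason, searched for motifs of the myeloid factor PU.1 and of interferon-activated factors. Whether these factors act on the gene in this tissue was not tested. The 250 bases before the annotated start, at chr13:85782386-85782635 on the plus strand of GRCr8, are given with matches to the searched motifs in capitals.
Fcgr3a promoter: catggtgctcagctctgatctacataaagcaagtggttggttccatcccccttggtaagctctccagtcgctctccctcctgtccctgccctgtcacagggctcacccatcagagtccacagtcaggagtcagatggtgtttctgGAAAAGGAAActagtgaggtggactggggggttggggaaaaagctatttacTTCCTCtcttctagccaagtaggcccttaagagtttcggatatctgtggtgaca
The match nearer the start, 54 to 49 bases before it, is the PU.1 core GAGGAA read on the minus strand. Windows of this length before 33469 annotated starts held that core on either strand in 23.3% of cases. The other match, 105 to 96 bases before the start, matches the interferon-stimulated response element, searched on both strands as GAAA, any 2 bases and GAAA, which 3.41% of the windows held. The letters of the interferon gamma-activated site, TTCNNNGAA, were not in this window and were in 7.67% of all windows. The matches do not overlap, and they describe the sequence only.

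Fcgr2b encodes the inhibitory IgG receptor CD32B of myeloid and B cells. It measured 7.51 in aged and 6.65 in young naive rats, 9.88 and 9.63 at 3 d, and 10.64 and 9.50 at 14 d. The aged array was the higher one at each time, by the most at 14 d and the least at 3 d. Fcgr2b rose by 2.68 ± 0.20 at 3 d, a 6.41-fold change (limma adjusted p = 0.000193), and by 2.99 ± 0.20 at 14 d, a 7.94-fold change (limma adjusted p = 0.000132).

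The activating members and the gamma chain changed less than the inhibitory receptor in every matched pair of stroke and naive arrays. At 3 d the change of Fcgr1a was 0.13 smaller than that of Fcgr2b in aged and 0.79 smaller in young rats, as differences of -0.13 and -0.79. For Fcgr3a these differences were -0.10 and -0.35, and for Fcer1g -0.11 and -0.41. At 14 d they were -0.57 in aged and -1.18 in young rats for Fcgr1a, -0.98 and -1.38 for Fcgr3a, and -0.44 and -0.62 for Fcer1g. The gaps were wider in young rats at both times and wider at 14 d than at 3 d in each age. The naive values of Fcgr1a and Fcgr3a lay below the 40th percentile, so their changes are uncertain in size. All the gaps subtract the same Fcgr2b changes over shared naive arrays and are not independent of each other. These differences were not tested, and they show unequal changes of signal, not a ratio of receptors.

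Fcrl2 carries the synonym Fcrls in the RefSeq gene table, and in mice Fcrls is known as a gene of homeostatic microglia. It measured 6.29 in aged and 6.40 in young naive rats, 10.92 and 10.82 at 3 d, and 10.80 and 10.32 at 14 d. Of 10947 tested genes its change ranked 3 from the top at 3 d and 2 at 14 d. The rise was 4.52 ± 0.16 at 3 d, a 23.0-fold change (limma adjusted p = 3.21e-05), and 4.21 ± 0.16 at 14 d, an 18.5-fold change (limma adjusted p = 5.45e-05). Both naive values lay below the 40th percentile, so the folds are uncertain.

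Fcrl2 did not move by the same amount as other genes of microglia. All 10 tested microglia markers were higher at both times, with medians of 1.32 at 3 d and 1.57 at 14 d. P2ry12, a purine receptor of resting microglia, rose by 1.15 at 3 d and 1.38 at 14 d. Tmem119, a microglial membrane protein, changed by 0.45 and 0.62, and its calls ended under 8 of 13 alternatives at 3 d and under 2 at 14 d. Among the markers the largest change at 3 d was that of the transporter Slc2a5, at 2.25. Unlike Fcrl2, the markers P2ry12 (9.43 in aged and 9.17 in young naive rats) and Tmem119 (8.53 and 8.25) stood well above the 40th percentile in naive tissue. Outside this list the macrophage marker Cd68 rose by 3.55 at 3 d and 4.14 at 14 d, from 6.89 in aged and 6.53 in young naive rats. The differences between Fcrl2 and these genes were not tested.

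The 2 probe sets annotated to both Fcgr2al1 and Fcgr2a are not values of either gene alone. Probe set 10769788 measured 9.0 in aged and 8.59 in young naive rats, 10.97 and 10.99 at 3 d, and 11.62 and 10.58 at 14 d. Probe set 10769797 measured 7.18 and 6.94, then 8.55 and 8.74, and then 9.07 and 8.38 in the same order of ages. On both, all 4 stroke arrays were above both naive arrays, and at 14 d the aged array was the highest of all 6. The changes at 3 d were 1.97 in aged and 2.41 in young rats for the first probe set, and 1.37 and 1.8 for the second. At 14 d they were 2.63 and 2.0, and 1.90 and 1.44.

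For all 5 measured members, every stroke array lay above both naive arrays, which was also so for 23.8% of tested genes. A rise of at least 2 on the log2 scale in both ages was rarer, at 1.03% of tested genes at 3 d and 1.01% at 14 d. All 5 members reached it at 3 d. At 14 d Fcrl2, Fcgr2b and Fcer1g did, whereas Fcgr1a reached 2.56 in aged and 1.67 in young rats and Fcgr3a 2.1 and 1.47. The lowest member change at 3 d was 2.20, for Fcgr1a in young rats, just past this cutoff. Because the members were chosen with earlier results of these data known, setting them beside these shares is a description only. All 5 calls at each time also held under each of the 13 alternatives, which included leaving out any 1 array. Not all of these could move a member's change. Each member has 1 probe set, and the filter, variance model and covariate bear only on its p-value.

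The next question was which other genes of the antibody-binding and ITAM pathway differed from naive tissue. The lists of pathway genes and cell markers were written with earlier results of these data known. Their counts of genes higher than in naive tissue stand beside 14.4% of all tested genes at 3 d and 13.6% at 14 d. Of 15 other Fc receptors and Fc binders 9 had a probe set of their own and 4 were tested. Fcgrt, the neonatal Fc receptor that salvages and transports IgG, measured 7.31 in aged and 7.25 in young naive rats, 8.24 and 8.44 at 3 d, and 8.72 and 8.36 at 14 d. It rose by 1.07 at 3 d and 1.26 at 14 d (limma adjusted p = 0.00289 and 0.00141). Trim21, a cytosolic ubiquitin ligase that binds antibody and is also interferon-inducible, rose by 0.85 and 1.10 (limma adjusted p = 0.00507 and 0.00168), and its call at 3 d ended under 1 of 13 alternatives.

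The Fc receptor-like gene Fcrla, known from B cells, measured 6.50 in aged and 6.30 in young naive rats, 6.40 and 6.38 at 3 d, and 7.21 and 6.65 at 14 d. Its change of 0.53 at 14 d passed the test (limma adjusted p = 0.0396), but the call ended under 8 of 12 alternatives. The IgE receptor chains Fcer1a and Ms4a2, which pair with the gamma chain in mast cells and basophils, did not reach the filter. Fcer1a lay between 4.84 and 5.59 over the 6 arrays and Ms4a2 between 4.09 and 4.77, below the lower quartile of their arrays.

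Of 20 tested ITAM adaptors, kinases and relays 14 were higher at 3 d and 16 at 14 d, with medians of 1.55 and 1.76 against -0.03 and -0.05 over all tested genes. None was lower. Tyrobp (DAP12), the ITAM adaptor that serves the receptors not coupled to the gamma chain, rose by 2.20 at 3 d and 2.35 at 14 d. It measured 9.52 in aged and 8.69 in young naive rats, 11.35 and 11.26 at 3 d, and 11.74 and 11.18 at 14 d. Syk rose by 1.59 and 1.68, with both naive values below the 40th percentile. The adaptor Lcp2 (SLP-76) rose by 2.57 and 2.45, the adaptor Blnk by 2.37 and 2.48, and the GTPase Rac2 by 2.54 and 2.34.

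Of 7 tested relays of inhibitory receptors 3 were higher at each time. Inpp5d, the phosphatase that Fcgr2b recruits, measured 7.77 in aged and 7.56 in young naive rats, 9.61 and 9.44 at 3 d, and 9.96 and 9.12 at 14 d. It rose by 1.86 and 1.88, and the phosphatase Ptpn6 (SHP-1) rose by 1.98 and 2.17. The third was the ubiquitin ligase Cblb at 3 d (0.58) and the adaptor Dok1 at 14 d (0.71), and these calls ended under 4 of 13 and 3 of 12 alternatives. Of other receptors that pair with Fcer1g or Tyrobp, 3 were tested and all 3 were higher. Trem2, a lipid-sensing receptor of phagocytes, rose by 1.99 and 2.33, Clec5a by 1.14 and 1.60, and Trem1 by 1.05 and 0.49. The call of Trem1 at 14 d ended under 6 of 12 alternatives, and that of Clec5a at 3 d under 2. Clec5a reached the 40th percentile on 1 array alone, the aged one at 14 d, and Trem1 lay below it on both naive arrays. The sizes of their rises are therefore uncertain.

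Of 16 genes of the phagocytic machinery 13 were higher at 3 d and 15 at 14 d, among them Cybb, the catalytic subunit of the phagocyte oxidase (3.37 and 3.13), and the integrin chains Itgam (2.51 and 2.76) and Itgb2 (2.44 and 2.91). Of 9 tested interferon gamma response genes 8 were higher at each time, among them Irf8 (2.11 and 2.57) and Gbp2 (1.88 and 2.49). Socs1 (-0.04 and 0.16) did not pass, and 3 more, Ifng, Ciita and Cxcl9, did not reach the filter. All of these were named after their values were seen. The plot of changes by list sets the members beside these lists.

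**Figure D2:**
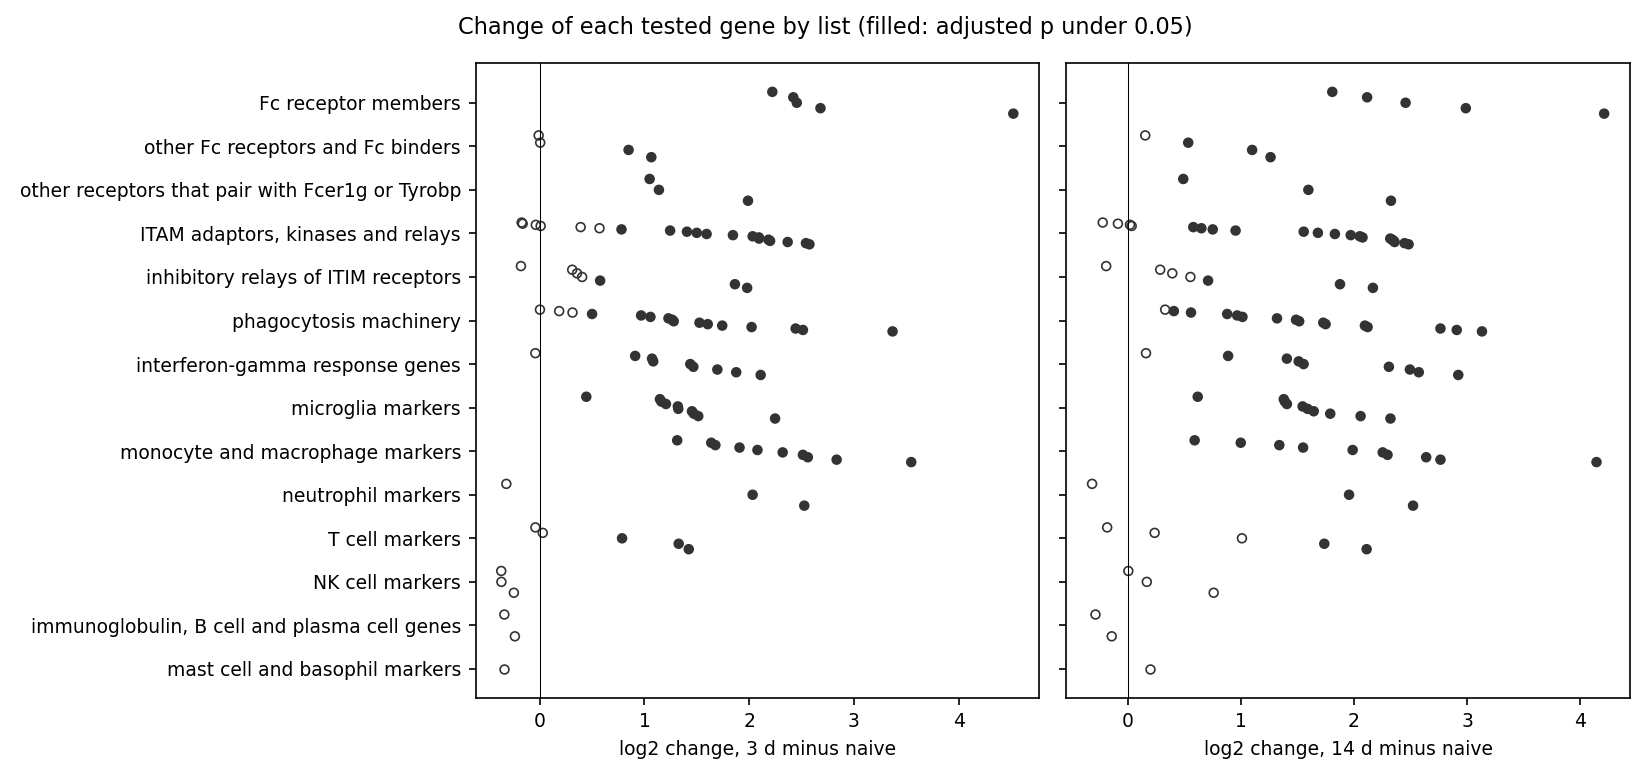
Log2 change against naive brain at 3 d (left) and at 14 d (right) from the limma fit, 1 point per tested gene, in rows by gene list. Filled points passed an adjusted p of 0.05. The 5 Fc receptor members lie between 2.22 and 4.52 at 3 d, and no tested gene of the NK cell, B cell or mast cell lists passed.

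Markers of the cells that can carry Fc receptors moved with the members as follows. All 10 tested monocyte and macrophage markers were higher at both times, with medians of 2.20 and 2.12, and their mean level was 6.84 in aged and 6.62 in young naive rats, 8.83 and 9.10 at 3 d, and 9.13 and 8.43 at 14 d. On the aged naive array 5 of these 10 markers lay below the 40th percentile, and on the young one 6, so the sizes of their rises are uncertain. The call of Plac8 ended under 3 of 13 alternatives at 3 d and under 1 at 14 d. The mean level of the microglia markers was 8.65 and 8.38 in naive rats, 9.89 and 9.81 at 3 d, and 10.27 and 9.91 at 14 d. The part of either cell type in the rises was not tested. Of 11 neutrophil markers 8 did not reach the filter, among them S100a8, at 3.43 to 3.72, and S100a9, at 5.65 to 6.44. Csf3r (2.03 and 1.96) and Mmp8 (2.53 and 2.52) passed, and Elane (-0.32 at both times, named after its values were seen) did not.

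Markers of lymphoid and mast cells were mostly low, but Cd4 was not, at 8.23 to 11.05 over the 6 arrays. Of 5 tested T cell markers 3 were higher at 3 d and 2 at 14 d, and 4 more did not reach the filter. Those 4 were Cd3d, Cd3e, Cd3g and Cd2. The tested markers Cd5 (-0.04 at 3 d and 0.24 at 14 d) and Lck (0.03 and -0.18) passed at neither time. All of these were named after their values were seen. Which cells carried Cd4 was not tested. The calls at 3 d ended under 3 of 13 alternatives for Cd4, 4 for Cd8a and 5 for Cd8b, and that of Cd8b at 14 d under 2. Cd4 rose by 0.79 at 3 d and by 2.11 at 14 d (limma adjusted p = 0.00679 and 0.000132). Its call at 14 d held under all 13 alternatives, and it was higher at 14 d than at 3 d by 1.33 (limma adjusted p = 0.00257). Of 7 measured NK cell markers 4 did not reach the filter, with Ncr1, the receptor NKp46, at 5.41 to 5.65 on the 6 arrays, and the 3 tested did not pass. Of 6 measured B cell and plasma cell genes 4 did not reach it, with the B cell antigen Ms4a1 at 4.89 to 5.29, and the 2 tested did not pass. Of 9 measured mast cell and basophil markers 8 did not reach it, and the 1 tested, the growth factor receptor Kit (named after its values were seen), did not pass.

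A further question was whether the members differed between 14 d and 3 d. None of the 5 passed limma's test, where 3.16% of tested genes passed in either direction. Fcgr3a had the largest difference, -0.65 ± 0.22, and was the 1 member with an unadjusted p under 0.05 (limma adjusted p = 0.267). The others were -0.31 ± 0.16 for Fcrl2, -0.11 ± 0.22 for Fcgr1a, 0.31 ± 0.20 for Fcgr2b and 0.04 ± 0.18 for Fcer1g, which do not show that the times were alike. The difference of Fcgr3a was -0.13 in aged and -1.16 in young rats. Without the aged 14 d array it was -1.07 and passed (limma adjusted p = 0.00285), and without the aged 3 d array it was -0.99 and passed (limma adjusted p = 0.0459). Each of these fits leaves 1 array at that time, which is assumed to vary like the other groups.

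Beneath these averages the ages moved apart. In young rats all 5 members were lower at 14 d than at 3 d, by between 0.14 for Fcgr2b and 1.16 for Fcgr3a, as changes of -0.14 and -1.16. In aged rats Fcgr2b was higher at 14 d by 0.75, Fcer1g by 0.42 and Fcgr1a by 0.32, while Fcrl2 changed by -0.12 and Fcgr3a by -0.13. The pattern of lower in young and higher in aged rats was shown by 3 of the 5 members and by 29.5% of tested genes. This age difference of the change was not tested.

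The last question was whether the members differed between aged and young rats. Averaged over the 3 time points, Fcgr2b was higher in aged rats by 0.75 ± 0.17 and Fcer1g by 0.71 ± 0.15, both in 3 of 3 pairs of arrays, against 11.3% of tested genes with the aged array higher in all 3 pairs. Neither passed after adjustment (limma adjusted p = 0.63 for both, unadjusted p = 0.0022 and 0.00167). The averages were 0.39 ± 0.18 for Fcgr3a, 0.16 ± 0.18 for Fcgr1a and 0.16 ± 0.13 for Fcrl2 (limma adjusted p = 0.638, 0.816 and 0.753). No gene of 10947 passed limma's test for age, or 0%, and 852 had an unadjusted p under 0.05.

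The age difference was not even over time. In naive rats 3 of the 5 members were higher on the aged array, as were 48.8% of tested genes. The aged array was higher by 0.86 for Fcgr2b and 0.65 for Fcer1g, which ranked 24 and 49 from the top among tested genes. Fcgr3a differed by 0.29, Fcrl2 by -0.11 and Fcgr1a by -0.15. At 3 d 3 of the 5 were higher, beside 37.5% of tested genes. The differences at 3 d were smaller than in naive rats for Fcgr2b (0.25) and Fcer1g (0.35). They were 0.10 for Fcrl2, -0.07 for Fcgr3a and -0.10 for Fcgr1a.

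At 14 d all 5 members were higher on the aged array, where 52.1% of tested genes were. Fcgr2b was higher by 1.14 and Fcer1g by 1.11, at ranks 65 and 75, and these 2 were past a 2-fold difference, as were 1.04% of tested genes. Fcgr3a was higher by 0.96 (rank 143), Fcgr1a by 0.74 (rank 355) and Fcrl2 by 0.48 (rank 1002). A limma fit added after the data were seen took the other time points' age differences as its error. In it the members at 14 d had adjusted p-values of 0.0625 for Fcgr3a, 0.0822 for Fcgr1a, 0.122 for Fcer1g, 0.144 for Fcrl2 and 0.145 for Fcgr2b. None passed, where 46 genes, or 0.42%, were higher in aged rats and none was called lower. By this fit 2344 of 10947 genes had an unadjusted limma p under 0.05 at 14 d. The same fit gave 293 for the pair at 3 d and 74 for the naive pair.

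**Figure D3:**
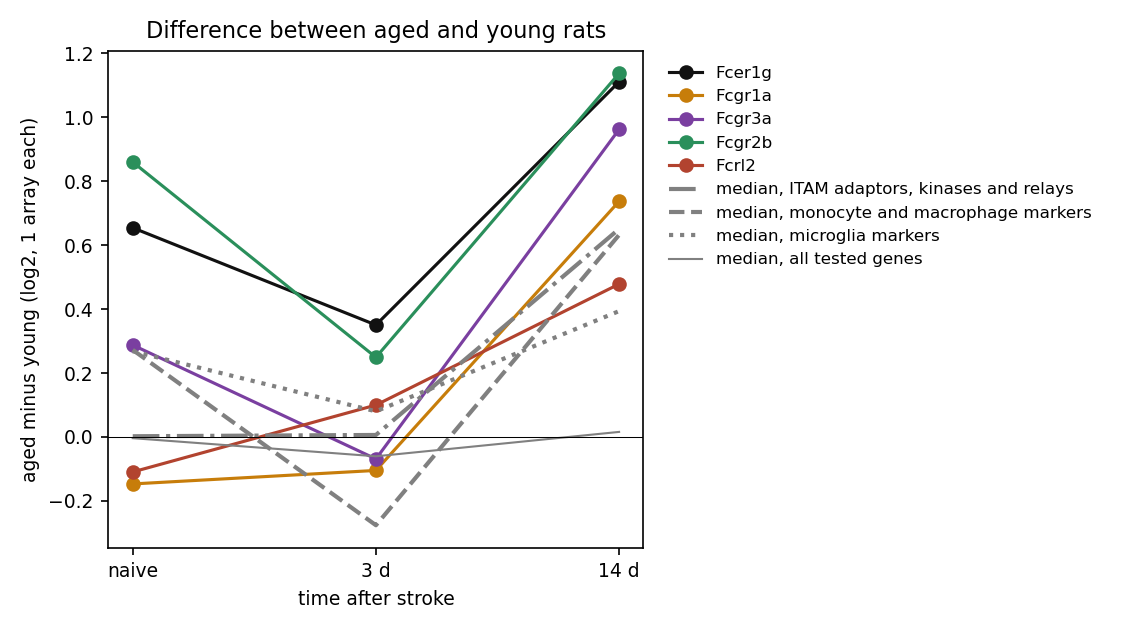
Level on the aged array minus that on the young array (y axis, log2) in naive brain and at 3 d and 14 d after stroke (x axis), for each measured member and, in grey, the median of 3 gene lists and of all tested genes. At 14 d the members lie between 0.48 and 1.14, and the median of all tested genes is 0.02.

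Other myeloid genes were also higher on the aged 14 d array than on the young one, as the plot of differences between the ages shows. Among ITAM adaptors, kinases and relays 17 of 20 were higher, with a median of 0.65. The monocyte and macrophage markers had 9 of 10 higher (median 0.63), the microglia markers 9 of 10 (0.39) and the phagocytic machinery 16 of 16 (0.30). At 3 d these medians were 0.01, -0.28, 0.08 and -0.02. The part of these cell types in the age difference of the members was not tested.

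The members' profiles over the arrays were close to each other. Pearson correlations between members over the 6 arrays ran from 0.936 for Fcgr2b with Fcgr3a to 0.996 for Fcgr2b with Fcer1g. All such values mainly follow the gap between stroke and naive arrays that the genes share, and 6 arrays leave many genes close to 1. Among genes with an SD of at least 0.5, the most alike to Fcer1g were the adaptor Blnk (0.999), the Toll-like receptor relative Cd180 (0.999) and the lysosomal amidase Naaa (0.997). For Fcgr2b they were Tmem176a (0.9996), the adaptor Skap2 (0.998) and the microglial chemokine receptor Cx3cr1 (0.998).

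For Fcgr1a the most alike genes were the Toll-like receptor adaptor Myd88 (0.999), the transcription factor Elk3 (0.999) and the actin regulator Coro1a (0.998). For Fcgr3a they were Parvg (0.998), the chloride channel protein Clic1 (0.997) and the kinase Cdk6 (0.996). For Fcrl2 they were the cathepsin Ctsc (0.996), the retrieval receptor Kdelr2 (0.996) and the anaphylatoxin receptor C3ar1 (0.996). Blnk measured 7.34 in aged and 6.61 in young naive rats, 9.55 and 9.14 at 3 d, and 10.05 and 8.86 at 14 d, the same order of arrays as Fcer1g.

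Fcgr2b, Fcgr3a, Fcgr2a and Fcer1g lie in 1 neighbourhood, and Fcgr1a and Fcrl2 do not. In the order of protein-coding genes of the RefSeq table (assembly GRCr8, used for names and order), Fcgr2b, Fcgr3a, Fcgr2a and Fcgr2al1 follow each other on 1 chromosome, between Fcrla and a stretch of unrelated genes that ends with Fcer1g. Of the 5 tested genes of this region that are not Fc receptor genes, none was higher at either time. The 3 named here were chosen after their values were seen. The neuronal calmodulin-binding relative Pcp4l1 changed by -0.72 at 3 d and -1.22 at 14 d and passed at both (limma adjusted p = 0.0294 and 0.0034). Tomm40l, a relative of a mitochondrial import pore, passed at 14 d with -0.62 (limma adjusted p = 0.00907). Sdhc, a subunit of succinate dehydrogenase, changed by -0.05 and -0.11 and did not pass. The changes along the gene order show the contrast within the region.

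**Figure D4:**
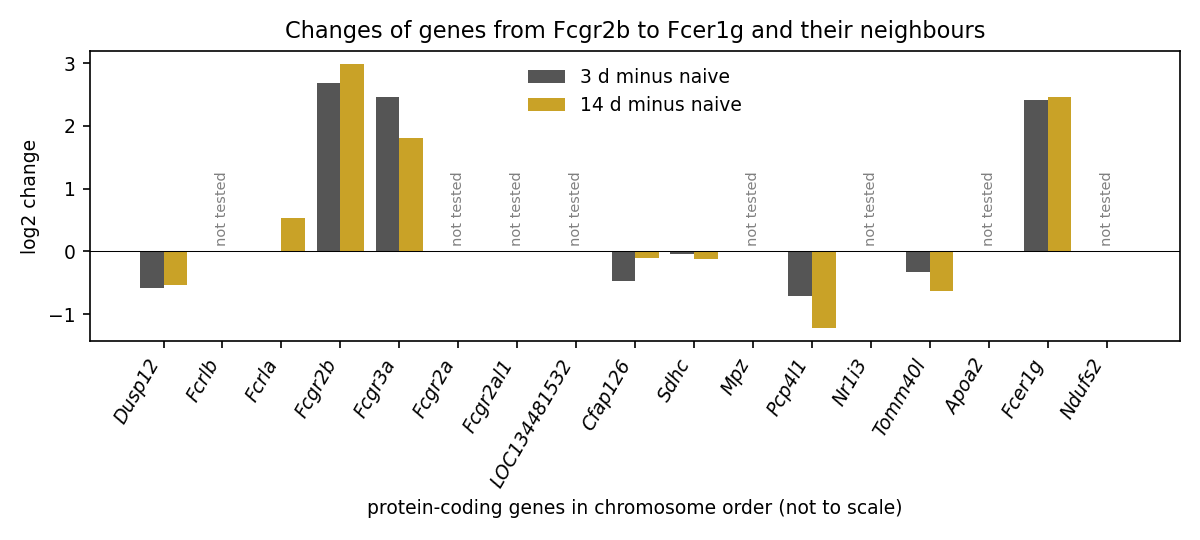
Log2 change against naive brain at 3 d (grey) and at 14 d (yellow) for protein-coding genes in their order on the chromosome, not to scale. Genes with no bar were not tested. Fcgr2b, Fcgr3a and Fcer1g rise by 1.81 to 2.99, and the genes between Fcgr2al1 and Fcer1g that were tested lie below 0.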

How the data were processed

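The values deposited by the authors, 1 for each probe set on each of 6 arrays, were taken as log2. Their base was inferred from the range, and each fold rests on it. R 2.14.0 with its affy package is named in the submitters' processing notes, while the background correction and normalization method are not given in these sources. Each array held pooled RNA, per the labels. Scaling arrays to each other hides overall changes in RNA content, and arrays compress folds. Batches or scan dates were not given.

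The annotation gave 15209 of 28826 probe sets 1 symbol, 306 several and 13311 none. Probe sets with 1 symbol were kept if at or above the 40th percentile of any array, and each gene was represented by its brightest probe set on average (10947 genes). Time and age were fitted with limma 3.58.1 in R 4.3.3 (2 residual and 5.56 prior degrees of freedom), after a test on simulated arrays. The members and lists were chosen with earlier results of these data known. From each list at most 4 genes are named, those with the largest change past the threshold, besides a set of partners named whatever their result. Further genes are marked where they were named after their values were seen. Alternatives changed the scaling (quantiles or medians), the filter (none, or the 60th percentile), the variance model, the covariate and the choice of probe sets, or left out 1 array. Sequence is from RefSeq (GRCr8).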

Additional observations from a re-analysis of the deposited data

Results flagged for a closer look

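Fcgr1a, Fcgr2b and Fcer1g moved in opposite directions between 3 d and 14 d in the 2 ages, higher in aged and lower in young rats. The change in aged minus that in young rats was 0.842 for Fcgr1a, 0.888 for Fcgr2b and 0.761 for Fcer1g. Each rests on 4 single arrays, and the difference was not tested. The same pattern held for 29.5% of tested genes.

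The 2 probe sets annotated to both Fcgr2al1 and Fcgr2a lie outside the tested genes and were above their level in naive brain. The mean of the 4 stroke arrays exceeded that of the 2 naive arrays by 2.25 for probe set 10769788 and by 1.63 for probe set 10769797. No test was made of them.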

How the results depend on the processing

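The calls of the 5 members at 3 d and at 14 d held, in the same direction, under all 13 alternatives. Of these, the filter, variance model, covariate and choice of probe sets left the members' changes as they were and could alter only p-values. The largest limma adjusted p of a member was 0.0121 at 3 d and 0.0297 at 14 d, both without the aged naive array. Over 4 comparisons the members had 260 alternative values, of which 9 turned in sign and 2 passed where the full set of arrays did not. All 11 came from leaving out 1 array. For 14 d against 3 d the change ran from -0.54 to 0.33 for Fcgr1a, -0.067 to 0.68 for Fcgr2b, -0.27 to 0.34 for Fcer1g, -0.55 to -0.07 for Fcrl2 and -1.07 to -0.22 for Fcgr3a. The mean age difference ran from -0.0047 to 0.29 for Fcrl2, from -0.13 to 0.32 for Fcgr1a and from 0.11 to 0.63 for Fcgr3a, lowest without either 14 d array. Of other genes Fcrla turned in sign at 3 d, at 0.030 after quantile normalization and -0.19 to 0.17 with 1 array left out, and passed in none of these.

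With 1 array left out the genes called numbered 746 (without the aged naive array) to 3726 (without either 14 d array) at 3 d, 752 (without the aged naive array) to 3470 at 14 d, and 221 (without either naive array) to 573 (without the young 14 d array) for 14 d against 3 d. For age they numbered 0 to 2, and 1 with trended and robust variances. The cause of these shifts was not tested.

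The fit of time and age sets stroke against naive arrays within each age, so age already stands as the block, and leaving it out is 1 of the 13 alternatives. The labels give no replicate numbers.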
